A study of Drosophila melanogaster with 2 samples.

Results

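Binding of pan was examined at 10 genes of the fly BMP pathway, out of the 13968 protein-coding genes annotated on the main chromosome arms. They were the ligand genes dpp and gbb, the receptor genes tkv, sax and put, the Smad genes Mad, Med and Dad, and the nuclear factor genes shn and brk. The territory of a gene was its Ensembl gene body with 2 kb on either side, and a peak was assigned to it when the peak's summit fell inside. By this rule 33 of the 6359 peaks in the conservative list fell to these genes. Chromatin was immunoprecipitated with an antibody against GFP from whole Drosophila melanogaster embryos, collected at ages from 0 to 24 h, of a strain expressing pan fused to eGFP, and was sequenced (ChIP-seq). The single group had 2 samples that the labels call biological replicates, both carried the fusion, and ages and tissues were mixed in each. The named control was not used here, so specificity for pan was not tested, and 2 replicates of 1 group allowed no test of a difference. Read depth is unknown from peak lists.

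BMP signalling starts when the ligands dpp and gbb bind a complex of the type I receptors tkv and sax with the type II receptor put. The receptors phosphorylate Mad, which joins Med and enters the nucleus, while Dad, an inhibitory Smad induced by the pathway, restrains it. With the zinc finger protein shn, the Mad and Med complex represses brk, itself a repressor of many dpp targets. The protein pan is the fly TCF, the DNA-binding effector of Wingless signalling, and in embryos the Wingless and dpp pathways are known to act together on several enhancers.

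Of the 10 genes, 8 held at least 1 conservative summit, and sax and put held none. Over all protein-coding genes 39.7% held one. The 33 summits were unevenly spread, with 16 in shn (48.5% of them), 6 in tkv, 4 in brk, 2 each in dpp and Dad, and 1 each in gbb, Mad and Med. Among genes with a territory within 20% of a member's length, the share with a summit ran from 31.1% at the length of gbb to 71.9% at that of shn, and the members were long, with a median territory of 14.2 kb against 6.16 kb over all protein-coding genes. Per 10 kb of territory, brk held 5.56 summits, shn 2.57, gbb 1.76, Med 1.2, tkv 1.06, Dad 0.98, Mad 0.569 and dpp 0.564, and over all protein-coding genes together the density was 0.634. Among the genes that held a summit, the median was 1.67 per 10 kb. Thus brk and shn were the densest, gbb was near that median, and Med, tkv and Dad were below it. Below the density of all genes as well were dpp and Mad, and sax and put, with no summit, were at 0. A single summit gives a short gene a high density, so counts at like length read otherwise for the long members. The median count at like length was 2 for shn and tkv, 1 for dpp, put, Mad and Dad, and 0 for gbb, sax, Med and brk. By that measure dpp, tkv and Dad were above their median, Mad was at it and put was below it. The density of brk rests on 4 peaks in a territory of 7.19 kb. Of these, the middle pair overlap, and the farthest, 1996 bp upstream, is just inside the 2 kb edge.

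In each of the other deposited lists too, shn held the most summits of the 10 genes. The longer pooled list had 35 summits in 8 of the genes (42.5% of all genes held one in that list). The list of replicate 1 had 27 summits in 8 genes (32.4% of all genes), and that of replicate 2 had 30 in 9 genes (36.5% of all genes), with sax as the addition. For shn the counts were 16, 16, 12 and 15 in the conservative, longer, replicate 1 and replicate 2 lists, and for tkv they were 6, 8, 3 and 4. For brk they were 4, 2, 3 and 1. Of the 33 conservative peaks, 30 overlapped the longer list, as did 91.4% of all conservative peaks. Counted from the 5′ end, the eighth and the eleventh of shn and the third of brk overlapped it only through entries of neighbouring peaks. The ranked list behind the conservative one held 303 peaks in the territories before thresholding, and 10.9% of these were conservative, against 5.17% of the 122939 ranked peaks of all arms. That share was 33.3% for brk and 20.8% for shn, 4% for dpp and 5% for Mad, and 0 of 13 ranked peaks for sax and 0 of 9 for put.

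**Figure D1:**
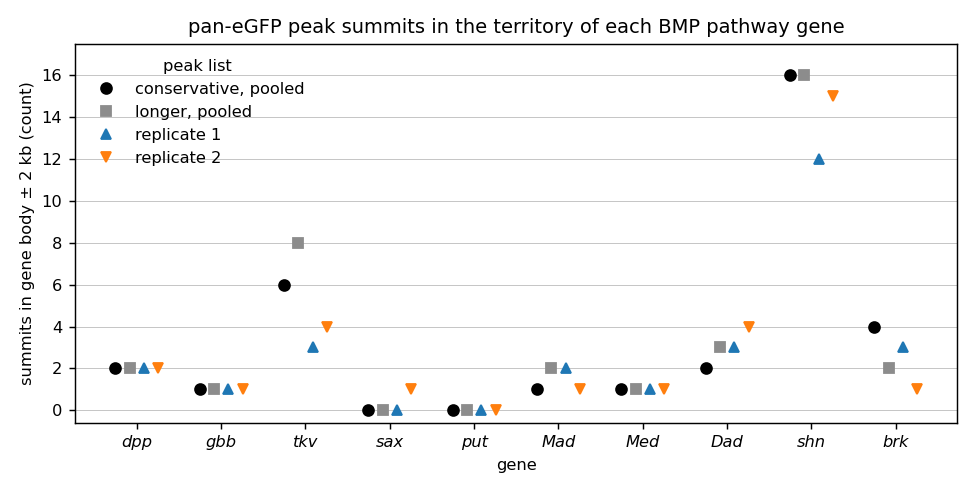
Number of peak summits (y axis) in the territory of each BMP pathway gene (x axis) in 4 deposited lists, 1 symbol per list. shn holds 12 to 16 summits in every list, tkv 3 to 8, and sax and put at most 1.

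The ligand gene dpp, at chr2L:2428372-2459823 on the plus strand, had 2 peaks, both away from its 4 annotated transcription start sites (TSSs). The first, at chr2L:2426455-2426794, was intergenic with its summit 1747 bp upstream of the first TSS. Its signal, the authors' value per peak on a scale not given in the sources used here, was 92.9 in replicate 1 and 70.6 in replicate 2 (mean 81.7 ± 15.7, SD, n = 2). The second, at chr2L:2433562-2433729, lay in an intron, 5291 bp downstream of the first TSS, with 130.3 and 147.2 (mean 138.7 ± 12, SD, n = 2). Both replicates thus ranked the intronic peak above the upstream one, and both peaks were in both replicates' own lists. At the first TSS itself the ranked list held a peak 33 bp away with a pooled signal of 37.7, below the threshold. The 101 bp around each summit are shown because the upstream window holds a TCF core, the letters pan is known to prefer (CTTTGNN with A or T at each N), at -7 to -1 bp from the summit. It is read on the minus strand, so the plus strand shown has TACAAAG. Sequences are from the reference genome, dm6, plus strand, at chr2L:2426575-2426675 and chr2L:2433613-2433713, and capitals mark a match to any motif searched.
dpp upstream: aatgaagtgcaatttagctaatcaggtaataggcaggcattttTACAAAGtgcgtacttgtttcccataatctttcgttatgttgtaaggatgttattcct
dpp intron: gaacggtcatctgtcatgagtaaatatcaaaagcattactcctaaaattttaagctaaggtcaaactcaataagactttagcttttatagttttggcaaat
The stronger intronic window held no match to any of the 7 motifs searched.

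The ligand gene gbb, at chr2R:23851562-23853247 on the plus strand, held the strongest peak of the set, but that peak lay at other genes' promoters. At chr2R:23850267-23850564 the signal was 897 in replicate 1 and 914.1 in replicate 2 (mean 905.6 ± 12.1, SD, n = 2), rank 13 of the 6359 conservative peaks by pooled signal. The values of the replicates were close. The summit was 80 bp from the TSS of the antisense RNA asRNA:CR45928, 109 bp from that of eIF6, a ribosome biogenesis and translation factor gene, and 663 bp from that of ytr, and 1152 bp upstream of the TSS of gbb. Within 1 kb of the gbb TSS the strongest ranked peak was 368 bp away, and 121 bp from the TSS of ytr, with a pooled signal of 47.5, and did not pass.

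Among the receptor genes, put, at chr3R:14619030-14625703 on the minus strand, had no summit in the conservative or longer list or in either replicate's own list. A ranked peak lay 30 bp from its TSS, and 22 bp from that of the histone gene His4r, with a pooled signal of 43.3, below the threshold. Of the 1621 protein-coding genes with a territory within 20% of its length, 52.4% held a conservative summit. Its nearest conservative summit was 16249 bp from the TSS.

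The type I receptor gene tkv, at chr2L:5219000-5271384 on the minus strand, held 6 peaks, each of modest signal and each inside its introns. In order from the 5′ end, they lay 9950, 15238, 28691, 42485, 45621 and 46457 bp from the first TSS. The signals in replicates 1 and 2 were 34.2 and 33.4 at the first, 60.2 and 58.2 at the second, and 62.1 and 48 at the third. They were 37.6 and 33 at the fourth, 49.4 and 52.3 at the fifth, and 38.9 and 49.5 at the sixth. The second and the third were the highest in replicate 1, while in replicate 2 the second and the fifth were. The first, the fourth and the sixth were in neither replicate's own list. The third peak, at chr2L:5242523-5242862, was 73 bp from the third TSS of tkv and 6 bp from that of CR14033, so these start sites cannot be told apart as its location. Of the 237 genes of like length, 71.3% held a summit, with a median of 2, and 37 held at least as many as tkv. The windows of the sixth and the third peaks are shown, dm6 plus strand, at chr2L:5224877-5224977 and chr2L:5242643-5242743, because the one holds a TCF core, CTTTGAA, at -18 to -12 bp from the summit, and the other a DRE, TATCGATA, the site of the promoter factor DREF, at -32 to -25 bp. Capitals mark these matches.
tkv toward the 3′ end: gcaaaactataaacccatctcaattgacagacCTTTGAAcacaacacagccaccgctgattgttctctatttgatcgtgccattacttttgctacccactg
tkv at CR14033: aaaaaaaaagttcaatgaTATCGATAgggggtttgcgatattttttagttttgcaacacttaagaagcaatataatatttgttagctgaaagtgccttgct
The DRE reads the same on both strands, so its match on each strand is the same stretch of letters.

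The other type I receptor gene, sax, at chr2R:7806484-7810067 on the plus strand, had no conservative summit, and 41.4% of the 3801 genes of like length held one. In the list of replicate 2 alone a peak at chr2R:7805456-7805745, with a signal of 32.7, lay 883 bp upstream of sax and 35 bp from the TSS of Nop17l. The strongest ranked peak in the sax territory had a pooled signal of 61.5 and was 422 bp from a sax TSS.

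Among the Smad genes, Mad, which encodes the Smad phosphorylated by the receptors, held 1 conservative peak, near its second TSS. The gene lies at chr2L:3146056-3159643 on the minus strand, and the peak, at chr2L:3153318-3153517, was 640 bp upstream of that TSS in an intron of the transcript that starts at the first TSS. The signal was 196.4 in replicate 1 and 178.9 in replicate 2 (mean 187.6 ± 12.4, SD, n = 2), rank 579. A second peak, 138 bp from the same TSS, was in the longer list, with 52 and 28.9, and in the list of replicate 1 but not that of replicate 2. With a promoter taken as 1 kb around a TSS, Mad was thus the member whose own promoter carried the highest signal. This depends on that window, since Mad had no conservative summit closer than 640 bp to its TSSs. The peak 138 bp away had a pooled signal of 88.1. The conservative peaks nearest to an own TSS were above that in the other 3 members with one, at 144.9 for shn, 111.9 for tkv and 93.2 for brk. Of the genes of like length, 62.3% held a summit.

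Med, which encodes the common Smad, was like gbb in that its strong peak was at neighbouring promoters. The gene lies at chr3R:31611046-31615375 on the plus strand. The peak at chr3R:31616029-31616313, past its 3′ end, had 670.6 in replicate 1 and 661.9 in replicate 2 (mean 666.2 ± 6.16, SD, n = 2), rank 33. Its summit was 8 bp from the TSS of Mnat9, 135 bp from that of CG1792 and 5122 bp from that of Med. Near the Med TSS the strongest ranked peak was 318 bp away, and 250 bp from the TSS of the cyclin gene CycG, in whose body it lay, with a pooled signal of 39.8, and did not pass. Upstream, 2 ranked peaks had a −log10 IDR above 2, the lowest value in the conservative list, yet were in none of the 4 thresholded lists, for a reason not given in the sources used here. The irreproducible discovery rate (IDR) scores how well a peak recurs at the same rank in both replicates. The stronger, at chr3R:31609628-31609967, had a −log10 IDR of 3.06 and signals of 46.2 and 64.4, and lay 17 bp from the TSS of CycG. The weaker, at chr3R:31608973-31609312, had a −log10 IDR of 2.45 and signals of 36 and 46.3, 672 bp from that TSS.

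Dad, the inhibitory Smad gene, at chr3R:17054007-17070408 on the plus strand, held 2 intronic peaks of different signal. The first, at chr3R:17056269-17056608 and 1542 bp from the nearest Dad TSS, had 51.5 in replicate 1 and 52.2 in replicate 2 (mean 51.8 ± 0.563, SD, n = 2), and was in the list of replicate 2 only. The second, at chr3R:17065065-17065249 and 10274 bp from the nearest Dad TSS, had 174.2 and 140.5 (mean 157.3 ± 23.9, SD, n = 2), rank 675, and was in both lists. The second was above the first in both replicates. At the Dad TSS itself, replicate 2 alone had 2 listed peaks, 30 and 389 bp away, with signals of 46.8 and 43.5. Both windows are shown, dm6 plus strand, at chr3R:17056389-17056489 and chr3R:17065121-17065221, because the first holds the letters of the Mad box (GACGNC or GGCGNC) and of the brk core site (GGCGNN with C or T at each N), to which Mad and brk are known to bind. Capitals mark these matches.
Dad first peak: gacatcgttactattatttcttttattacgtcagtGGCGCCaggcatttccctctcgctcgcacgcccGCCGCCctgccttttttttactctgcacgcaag
Dad second peak: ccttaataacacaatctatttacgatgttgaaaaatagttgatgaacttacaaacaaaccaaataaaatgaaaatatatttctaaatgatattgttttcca
GGCGCC, at -15 to -10 bp from the summit, is a palindrome and fits both motifs, and GCCGCC at 18 to 23 bp is a Mad box on the minus strand. The second window, of 22.8% G and C against 51.5% in the first, held no match to the 7 motifs.

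**Figure D2:**
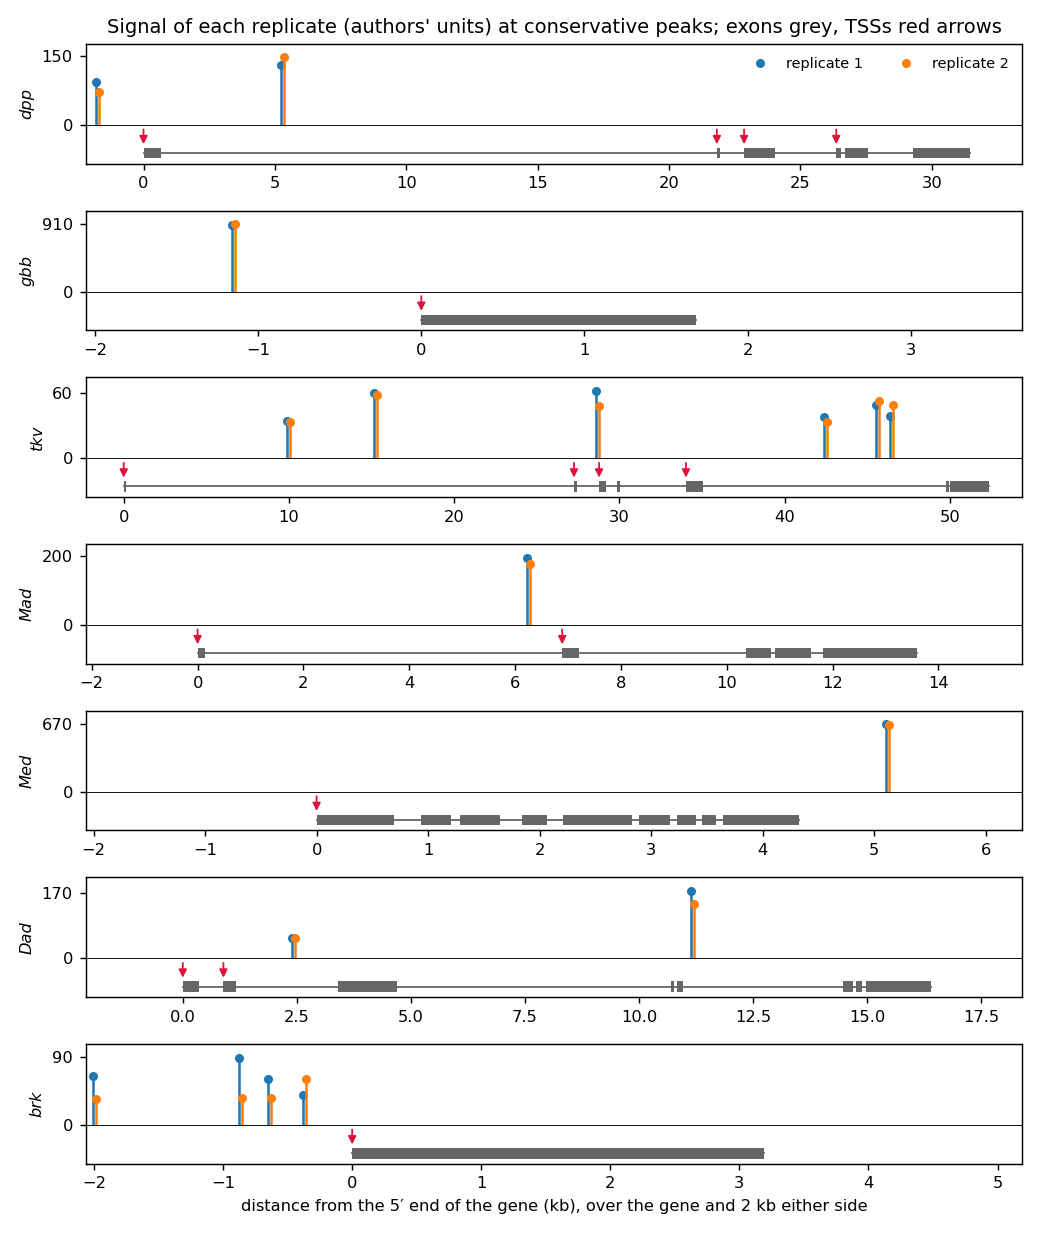
Signal of replicate 1 and replicate 2 (y axis) at the conservative peaks of the 7 members other than shn that held any. The x axis is distance from the 5′ end of the gene in kb. Signals are in authors' units, from 0 in each panel with its own maximum. The replicates of a peak are drawn side by side, grey boxes are exons and red arrows TSSs; the peaks of gbb and Med lie outside the gene, and those of brk all lie upstream of it.

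The shn gene, at chr2R:11159086-11217394 on the plus strand, held many summits of ordinary signal. Only 5 protein-coding genes, shn among them, held 16 or more. Among the 192 genes with a territory within 20% of its length, 71.9% held a summit, the median was 2, and 1, the kinase gene Tlk, held as many. The median pooled signal over the 16 peaks was 119.3, close to the 120 of all conservative peaks, and 9 of the 16 were below that median.

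The strongest peak of shn was the third from the 5′ end, at chr2R:11184448-11184693, an intronic site 25478 bp from the first TSS. Its signals were 311.3 and 313.1 (mean 312.2 ± 1.25, SD, n = 2), rank 183. Next was the seventh, at chr2R:11194694-11194893 and 35728 bp from the first TSS, with 215.6 and 188.6 (mean 202.1 ± 19.2, SD, n = 2), rank 487. These were the only 2 above double the median of all peaks, and both replicates kept them in that order with no overlap. The fifteenth, at 48138 bp, followed with 107.5 and 94.8. The ninth, at 36779 bp, had 91 and 96.5, and the tenth, at 37987 bp, had 96.5 and 86.3. The second, at 20160 bp, had 97 and 59.6, and its replicates differed more than those of the others just named. The thirteenth, 6 bp from the fourth TSS, had 56.4 and 87.2.

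The other peaks of shn were weaker in pooled signal, and the eleventh has no replicate peak of its own. The fourth had 64.2 and 37.1, the fifth 51.8 and 76.2, and the sixth 55.1 and 65.9. The eighth had 51.4 and 34.5, the twelfth 42.7 and 47.1, and the fourteenth 36.6 and 53.8. The first had 35.6 and 38.6, and the last 33.7 and 34. The eleventh rested on the same replicate peaks as the tenth, 230 bp away, while its own pooled signal was 21.9, the lowest of the 33. In general the pooled signal was close to the sum of the replicates, with a median ratio of 0.987 over the 33 peaks and 0.995 over all. The ratio was below 0.75 at 3 of the 33, the first (0.514) and the eleventh (0.12) peaks of shn and the first of Dad (0.583), and at 5.49% of all peaks.

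Along shn the summits ran from 17097 to 60121 bp from the first TSS, with a median gap of 2150 bp and gaps from 200 to 11983 bp. Of the 16, 15 lay within the gene body, and 3 pairs of neighbouring peaks overlapped, so that merging overlaps left 13. Of the 5 annotated TSSs, only the fourth, at 39190 bp, had conservative summits within 1 kb, and it had 3. No ranked peak lay within 1 kb of the first TSS. The second TSS, at 14717 bp, had a peak 103 bp away in the longer list, with a pooled signal of 93.9, and replicate 2 alone had 2 listed peaks near it. The last peak lay past the 3′ end of shn, 34 bp from the TSS of CG9084 and 332 bp from that of Syx6, a syntaxin gene, and was in neither replicate's own list. Of the 16, 12 overlapped a peak in both replicates' lists, but the eighth touched only the listed peaks of the seventh and the eleventh rested on those of the tenth, so 10 had listed peaks of their own in both.

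**Figure D3:**
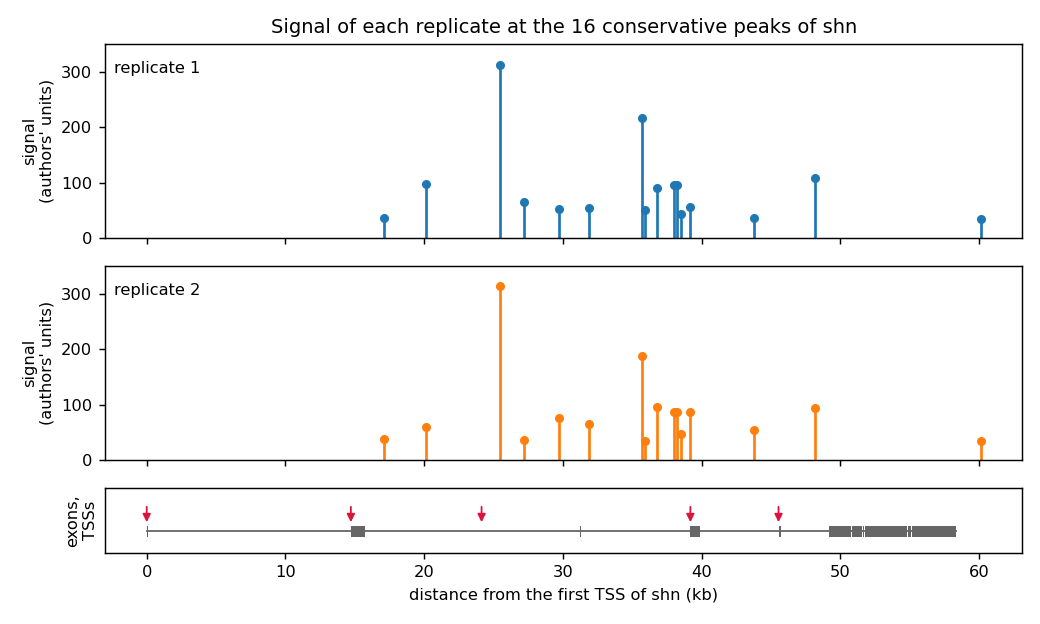
Signal of replicate 1 (top) and replicate 2 (middle) in authors' units (y axis) at the 16 conservative peaks of shn, against distance from its first TSS in kb (x axis), above the exons (grey) and TSSs (red arrows). The peaks at 25478 and 35728 bp are the highest in both replicates, and no peak lies at the first TSS.

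The target repressor gene brk, at chrX:7307939-7311132 on the plus strand, held 4 peaks in the 2 kb upstream of its TSS and none in its body. From the farthest to the nearest they lay 1996, 868, 640 and 367 bp upstream. All are also inside the gene bodies of CG1677 and lncRNA:CR44357, which span brk. The signals in replicates 1 and 2 were 64.7 and 33.9 at the first, 88.9 and 36.1 at the second, 61.2 and 36.1 at the third, and 39.1 and 61.1 at the fourth. The first 3 were higher in replicate 1 and the fourth in replicate 2. The log2 ratio of replicate 1 to replicate 2 was 0.93, 1.30, 0.76 and -0.64, against a median of -0.02 and an SD of 0.50 over all conservative peaks. The second and the third share 1 replicate 2 peak. No brk peak was in both replicates' lists: the first 3 were in that of replicate 1 only and the fourth in that of replicate 2 only. Of the 4512 genes of like length, 39.3% held a summit and 24 held at least as many as brk. The windows of the third and the fourth peaks are shown, dm6 plus strand, at chrX:7307249-7307349 and chrX:7307522-7307622, because they are nearest to the TSS and hold different motif letters. Capitals mark GATA motifs (NGATAN with A or T first and A or G last, read here on the minus strand) in the third and a brk core site on the minus strand in the fourth.
brk at 640 bp: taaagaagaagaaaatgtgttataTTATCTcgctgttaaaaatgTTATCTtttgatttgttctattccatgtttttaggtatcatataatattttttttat
brk at 367 bp: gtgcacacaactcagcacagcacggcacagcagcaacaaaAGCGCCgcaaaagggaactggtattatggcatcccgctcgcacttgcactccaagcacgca
The window at 640 bp was 20.8% G and C and the one at 367 bp 56.4%.

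By the strongest peak of each gene, the order of pooled signal was gbb (1815), Med (1338), shn (630.1), Mad (368.1), Dad (338.9), dpp (274.9), brk (123.9) and tkv (119.7). The replicate ranges did not overlap between neighbours in this order except for Dad with dpp and for brk with tkv. The gap between Mad and Dad was small, with a lowest replicate of 178.9 for Mad and a highest of 174.2 for Dad. The top pair, gbb and Med, owed their place to peaks at other genes' promoters.

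**Figure D4:**
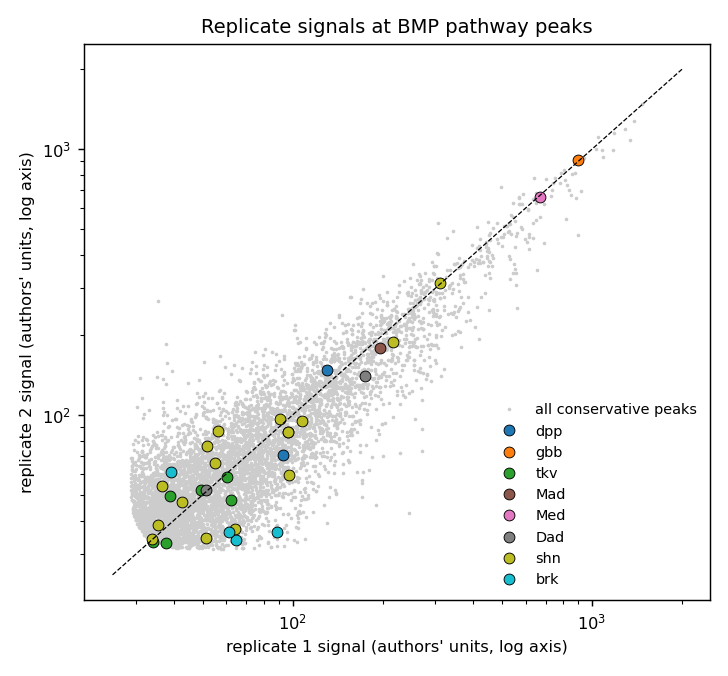
Signal in replicate 1 (x axis) against replicate 2 (y axis), authors' units on log axes, for all conservative peaks with both values (grey) and the 33 peaks of the BMP genes (coloured by gene); the dashed line is equality. The peaks of gbb and Med lie near the line at the top, and those of brk lie off it.

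By position, the members' peaks were mostly intronic. Summits no farther than 1 kb from any annotated start site were called promoter summits. Of the 33, 11 (33.3%) were promoter summits, against 54% of all conservative summits. A further 21 (63.6%) were intronic, against 32.2%, and 1 was intergenic. Coding exons held none, as they held 0.44% of all. Of the 21 intronic summits, 12 were in shn. Without shn the promoter share was 41.2%, 7 of 17, and the intronic share 52.9%, 9 of 17. The territory rule takes only summits in or within 2 kb of a gene, so it admits few intergenic ones. It also favours introns where genes are long, so these shares are partly set by the rule. Of the 11, 8 were at a TSS of the member itself and 3 only at that of another gene, those of gbb, Med and the last of shn. By gene, 4 of the 10 (tkv, Mad, shn and brk) had a summit within 1 kb of their own TSS, against 25.6% of protein-coding genes, and 4 of their 23 TSSs in all did.

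Between the replicates, 21 of the 33 peaks (63.6%, exact 95% interval 45.1 to 79.6%, counting error only) overlapped both replicates' lists, against 55.3% of all conservative peaks. The interval takes the peaks as independent, though 16 were in shn and some shared replicate peaks. In shn 12 of the 16 (75%) overlapped both lists, and without shn 9 of 17 (52.9%) did, below the share of all. Counting a peak only where the replicate peak compared at it was itself listed gave 20 of the 33 (60.6%), against 54.8% of all. The tenth and the eleventh of shn share their replicate peaks, so 19 of these 20 were distinct. By overlap, beyond the 21, 4 peaks were in the list of replicate 1 only, 3 in that of replicate 2 only and 5 in neither. Both peaks of dpp and the single peaks of gbb, Mad and Med were in both. The median log2 ratio of replicate 1 to replicate 2 over the 33 was 0.04 with an SD of 0.45, so neither replicate was higher throughout.

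The motifs were sought on both strands in the 101 bp around each summit, and a match is a description of letters, not of a site in use. The TCF core was in 3 of the 33 windows (9.09%), the upstream peak of dpp, the sixth of tkv and the fifteenth of shn, against 9.47% of all conservative windows. The helper site (GCCGCCA or GCCGCCG), which the fly TCF protein is known to contact beside the core, was in 2 (6.06%, against 2.31%), both of shn and neither with a TCF core. The Mad box was in 5 (15.2%, against 11.1%) and the brk core site in 3 (9.09%, against 8.54%), and these overlap with each other and with the helper site. The DRE was in 1 (3.03%, against 1.54%) and the GATA motif in 6 (18.2%, against 20.8%). The silencer element, to which Mad, Med and shn are known to bind together at brk, was in 0 of the 33 windows and 0 of all 6359. Within the 10 whole territories it occurred once, in a shn intron, 644 bp from the nearest conservative summit. Farther than 2 kb from these genes only summit windows were searched, so the rest of the region upstream of brk was not covered.

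Other genes of BMP and activin signalling, a list of 47, were read the same way. Of these, 26 (55.3%) held a conservative summit, with 93 summits in all, against 39.7% of all protein-coding genes, and their median territory was 13 kb. By role, all 4 receptors and co-receptors held one, led by the type II receptor gene wit (pooled signal 430.4) and the glypican genes dlp (329) and dally (280.3). All 6 intracellular modulators did, led by the co-repressor genes sbb (449.8) and Snoo (391.4), with the activin Smad gene Smox (268.2) peaking 94 bp from the TSS of CG17982. Of 12 extracellular modulators 7 did, led by magu (525.8), sog (322.3), which encodes a dpp-binding antagonist, and cv-2 (318.9). Of 20 reported targets 9 did, led by the heart gene tin (708), tup (494.5, 101 bp from the TSS of CG10602) and Ance (445.9, 67 bp from that of Smg5). None of the 5 other ligand genes did, but Actbeta, mav and myo lie on chromosome 4 and had 0 ranked peaks at all, while scw had 7 and daw 14. Some of the counts by role rest on peaks at other genes' TSSs. The single peak of babo was 89 bp from those of CG33199 and CG8229. That of Smurf was 19 bp from the TSS of tRNA:Phe-GAA-1-5, and that of Sara 661 bp from the TSS of Sdc. The median territory was 28.8 kb for the receptors and co-receptors and 47.4 kb for the intracellular modulators, and no share at like length was taken. Of the 47, 16 had a summit within 1 kb of their own TSS, against 25.6% of all protein-coding genes.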

How the data were processed

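Peak lists were analysed for 2 replicates of 1 group, on the dm6 assembly per the labels. Per the file headers, the authors deposited IDR ranked and IDR thresholded lists for each replicate and pooled. Signal is the value per peak that the authors deposited, on an unstated scale; aligner, peak caller and control handling are likewise not given in the sources used here. Ranked lists also carry a deposited −log10 IDR. Replicate signals at a pooled peak were looked up in each replicate's ranked list at the positions that the pooled ranked list gives, and 6340 and 6344 of 6359 conservative peaks were found. The 7 conservative peaks off the main arms were left out. Genes and TSSs were from Ensembl release 115 and sequences from the genome of the same assembly, read with Python 3.11.15, pandas 2.3.3, numpy 2.4.6 and scipy 1.17.1. Lists shared a peak at 1 base of overlap. Assignment and motif counting were tested on simulated data.

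Named were all members, every gene with a TSS within 1 kb of a member summit, and the 3 genes of strongest peak per role of the wider list. The genes at peaks outside the conservative list, and Tlk, were named after their values were seen. So were babo, Smurf and Sara, with the genes at their peaks. Members, lists and motifs were chosen with earlier results of these data known. Alternatives were other lists, territories, windows, overlap rules and merging; leaving out shn, and counting only replicate peaks that are themselves listed, were added after seeing the data. No tests were made.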

Additional observations from a re-analysis of the deposited data

How the results depend on the processing

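Of 52 alternative values, 44 stayed within the spread allowed for counts and shares and 8 did not. That spread is wide for 33 peaks, so a value that stayed within it may still have changed much. Among those that stayed, the promoter share of the member summits was 18.2% with a TSS window narrower than 1 kb, against 33.3%. Members with a summit within 1 kb of their own TSS were 6 without replicate 1, against 4. The share of protein-coding genes with a summit was 42.5% in the longer list, 15.2% with the gene body alone and 54% with 5 kb either side, against 39.7%, and it ranged from 32.4 to 36.5% when either replicate was left out. With the gene body alone 5 of the 10 members held a summit, since the peaks of gbb, Med and brk lie outside the gene. Taking the 5′ end of the gene record as the only TSS left 1 member, brk, with a summit at its own start. Without shn 17 summits remained. When either replicate was left out, 8 to 9 members held a summit, with 27 to 30 summits in all and 12 to 15 in shn. An IDR of 0.01 was no stricter than the list itself, since every conservative peak already passed it, and its 2 values are not counted here. With 50% of the shorter peak as the overlap, 57.6% of the 33 peaks were in both replicates' lists. No paired analysis was possible because there is 1 group and no result comes from a test. The depth behind each value is unknown, and the replicates' own lists are not the conservative list with 1 replicate taken out.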

Other observations

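Beyond the territories, the members differed in how many further conservative summits lay within 20 kb of the gene. brk had 10, of which 7 were not within 1 kb of any TSS, and gbb had 6, Dad 4, dpp 3, sax, Med and shn 2 each, tkv and put 1 each, and Mad 0. Upstream of brk, 3 summits at 14694, 14182 and 13585 bp had signals of 120.1 and 94.6, 132.7 and 132, and 138.2 and 109.6 in replicates 1 and 2. Each was above every brk peak within 2 kb in both replicates. A further 3 at 8377, 6043 and 5390 bp had 67.3 and 44.3, 71.4 and 96.4, and 46.4 and 53. All 6 lie inside the bodies of CG1677 and lncRNA:CR44357, so which gene they belong to was not tested. For sax and put the further summits were at other genes' TSSs, those of puml and TTLL12 and of phr and CG30383 near sax, and that of CG14853 near put.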
